A study of Mus musculus with 6 samples.

Results

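The genes described here are 9 chemokine receptor genes of the mouse: Ccr1, Ccr2, Ccr7, Ccr9, Cxcr2, Cxcr3, Cxcr4, Cx3cr1 and Ccrl2. They were chosen by symbol, with earlier results of these data known. Every probe set annotated to exactly 1 of these symbols was used. All 9 were found, with 18 of the 45037 probe sets of the array, and they make up 9 of 18192 genes. Each gene is represented by its lead probe set, the one with the highest mean over the 6 arrays.

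The study asked how overproduction of EVI1, the zinc finger factor that the Mecom gene encodes, changes transcript levels in blood progenitors. Marrow cells depleted of lineage-positive cells (Lin-) came from C57BL/6J mice carrying the Rosa26rtTA allele, a transactivator that doxycycline switches on. The EGFP-positive group (3 arrays) carried the lentiviral vector pRRL.TET.EVI1.IRES.EGFP and was sorted for high EGFP. The EGFP-negative group (3 arrays) is called untransduced in the sample labels, whereas the design text speaks of cells negative or low for EGFP in a transduced culture. Both groups carried the Rosa26rtTA allele and grew with 50 ng/ml each of stem cell factor, Flt3 ligand and interleukin-11 and 20 ng/ml of interleukin-3. By the design text, doxycycline (1 µg/ml) was given for 20 hours before the sort. The EGFP-positive samples are also described with that word in 1 field, so the groups follow the sample titles. The labels give no age or sex and do not say whether replicates came from separate animals or cultures, so the p-values cover just the spread among these arrays, which may be technical.

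Chemokine receptors are cell surface receptors that cross the membrane repeatedly and signal through inhibitory G proteins to PI3-kinase, phospholipase C and the actin skeleton, so that a cell moves toward a chemokine source. In bone marrow, Cxcr4 and its ligand Cxcl12 hold progenitors and neutrophils in place, whereas Cxcr2 draws neutrophils out and Ccr2 draws monocytes out. Ccr7 and Ccr9 are known for guiding lymphocytes, dendritic cells and thymus-seeding progenitors, and Ccrl2 binds chemerin without known signalling of its own.

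Expression is given as deposited log2 values, in which a difference of 1 is a factor of 2. Array medians lay between 5.11 and 5.14, and Pearson's r across probe sets was at least 0.989 within groups and 0.968 to 0.969 between them. The highest of 27 bacterial control probe sets read 3.61 on any array and serves as a background ceiling. The 3′ minus 5′ signal, which depends on RNA quality and amplification, differed by group: 0.76 to 0.86 for Actb and 0.80 to 0.84 for Gapdh in EGFP-negative arrays against 0.97 to 1.03 and 1.03 to 1.10 in EGFP-positive arrays. Its part in the results was not tested. Mecom did not pass the test at any of its 3 probe sets, of which the brightest read 8.26 ± 0.09 (SD, n = 3) without and 7.97 ± 0.20 with EGFP. Both means of the others lay under the ceiling (2.84 and 2.97, 2.16 and 2.25), where a change could hardly show. The sources used here do not say whether these probes match the vector's EVI1. The progenitor genes Kit and Cd34 were well above the ceiling in both groups (7.58 and 10.48 without EGFP, 6.60 and 7.74 with it). Of the mature lymphocyte genes, Cd3g and Ms4a1 had both means under the ceiling, whereas the T cell gene Cd3e read 5.91 and 3.89 and the B cell gene Cd79a 4.08 in both groups. The last 2 were picked after their values were seen.

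Among the 9 receptors, 5 were lower in EGFP-positive cells (Ccr1, Ccr2, Ccr7, Cxcr4 and Cxcr2), 1 was higher (Ccr9) and 3 did not pass (Cxcr3, Cx3cr1 and Ccrl2). The test was limma's moderated test over all genes, with Benjamini-Hochberg adjustment and a threshold of 0.05 on the adjusted p. Over all genes, 17.2% were lower and 16.0% higher by the same rule. The 5 falls were all at least 2-fold, against 6.24% of all genes, and in the same 5 genes every EGFP-positive array lay below every EGFP-negative array, as in 24.4% of all genes. Of the 18 probe sets, 9 were lower, 1 was higher and 8 did not pass, against 12.6% lower and 11.6% higher over all probe sets. The median difference of the 9 genes was -1.11, and that of all genes was 0.02. Because the 9 were chosen with earlier results of these data known, these comparisons with all genes are no test of the family. The arrays measured whole sorted fractions, so fewer cells of a type and less RNA per cell cannot be told apart.

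**Figure D1:**
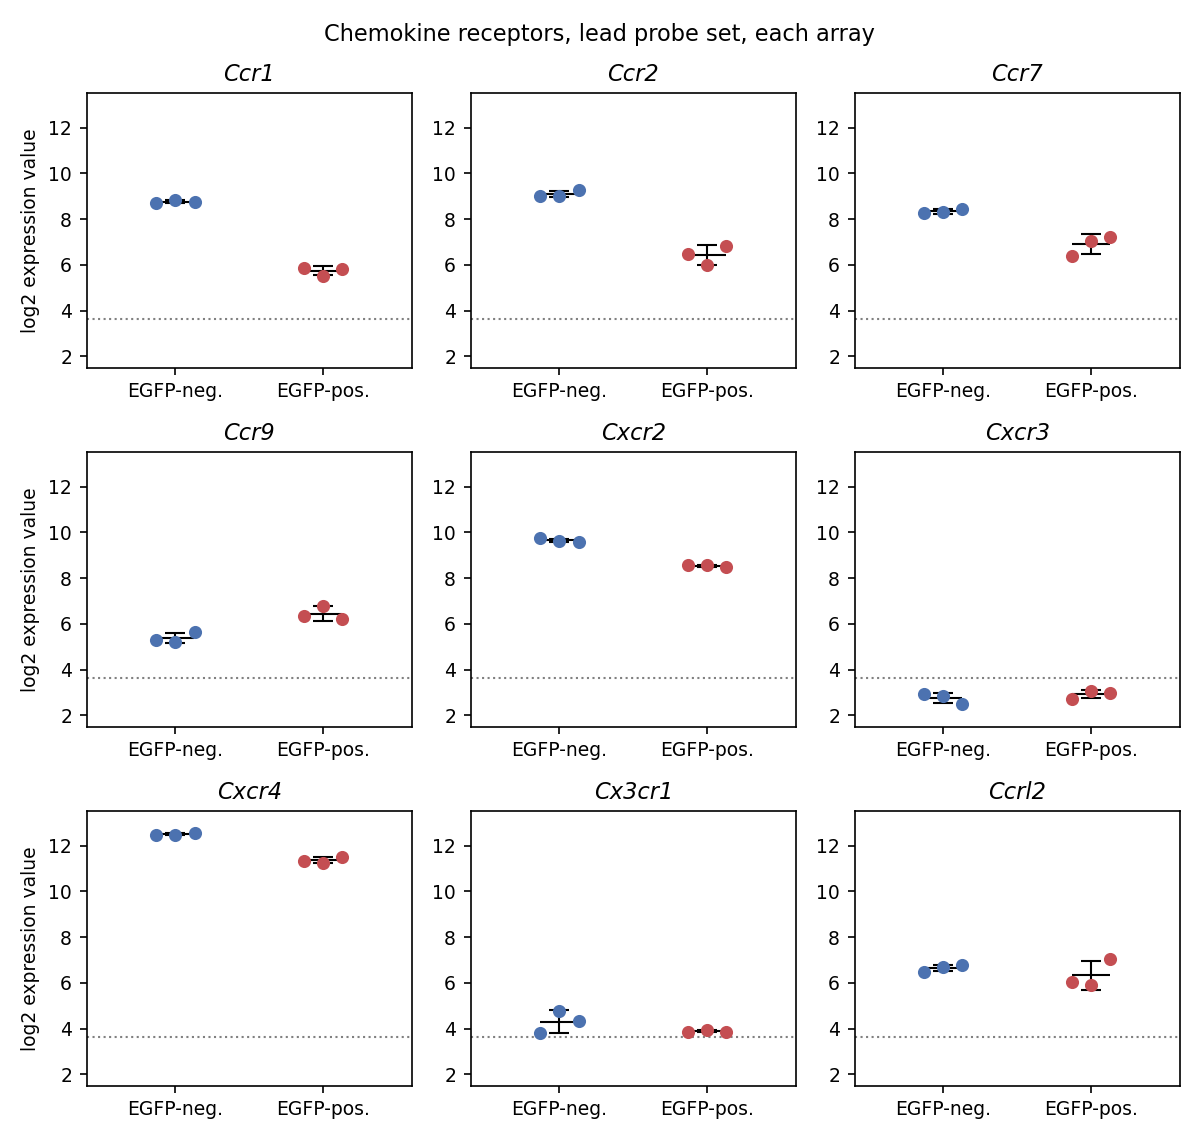
Log2 expression value (vertical axis) of the lead probe set of each chemokine receptor on the 3 EGFP-negative (blue) and 3 EGFP-positive (red) arrays. Horizontal bars with whiskers are the mean ± SD and the dotted line is the background ceiling of 3.61. The points of Ccr1 fall from about 8.76 to 5.74 with no overlap, whereas all 6 points of Cxcr3 lie under the ceiling.

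Promoter windows of 4 members are shown because they carry the contrast between lead probe sets. They are Ccr1 and Ccr2, the largest falls, Ccr9, the only rise (by its lead probe set alone), and Cxcr4, the marrow retention receptor. Each runs 5′ to 3′ on the gene's own strand, from 250 bases before to 50 bases after the RefSeq start (build GRCm38.p6). The windows lie at chr9:123968643-123968942 (minus strand) for Ccr1, chr9:124101933-124102232 (plus strand) for Ccr2, chr9:123766961-123767260 (plus strand) for Ccr9 and chr1:128592250-128592549 (minus strand) for Cxcr4. Capitals mark matches on either strand to 1 of 3 short motifs. These are AGATAA, which GATA factors and the first zinc finger domain of EVI1 favour. Next is GAGGAA, a core of sites for PU.1 and other ETS factors. Last is TGTGGT, the RUNX core. No matches overlap in these windows.
Ccr1: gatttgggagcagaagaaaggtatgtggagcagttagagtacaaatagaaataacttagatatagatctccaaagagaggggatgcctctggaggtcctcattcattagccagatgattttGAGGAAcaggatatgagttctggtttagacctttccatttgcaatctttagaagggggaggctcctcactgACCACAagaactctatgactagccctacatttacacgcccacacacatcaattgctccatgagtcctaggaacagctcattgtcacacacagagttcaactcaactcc
Ccr2: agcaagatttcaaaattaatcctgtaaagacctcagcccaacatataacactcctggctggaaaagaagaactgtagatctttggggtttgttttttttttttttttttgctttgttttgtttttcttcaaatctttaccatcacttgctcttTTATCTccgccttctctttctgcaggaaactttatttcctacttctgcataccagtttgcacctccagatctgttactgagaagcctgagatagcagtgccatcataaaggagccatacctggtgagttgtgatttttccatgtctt
Ccr9: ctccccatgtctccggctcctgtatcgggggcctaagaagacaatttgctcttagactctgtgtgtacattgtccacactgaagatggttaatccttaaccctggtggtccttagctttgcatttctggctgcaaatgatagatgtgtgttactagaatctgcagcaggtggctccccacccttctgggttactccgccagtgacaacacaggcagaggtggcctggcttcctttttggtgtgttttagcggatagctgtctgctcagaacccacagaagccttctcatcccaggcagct
Cxcr4: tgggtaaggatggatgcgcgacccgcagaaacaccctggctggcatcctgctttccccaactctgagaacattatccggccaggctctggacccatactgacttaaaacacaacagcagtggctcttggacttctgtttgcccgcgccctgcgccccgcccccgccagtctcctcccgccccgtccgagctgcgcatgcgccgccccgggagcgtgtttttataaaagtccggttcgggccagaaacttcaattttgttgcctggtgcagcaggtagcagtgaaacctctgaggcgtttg

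The Ccr1 window held 1 match to GAGGAA, at base -129 from the start, and 1 to TGTGGT, on the opposite strand at -58. The Ccr2 window held 1 match to AGATAA, on the opposite strand at -97, and the Ccr9 and Cxcr4 windows held none of these letters. Cxcr2, not printed, had 2 matches to GAGGAA, at -81 and 7, both on the opposite strand. Of 32851 RefSeq windows of the same length, 11.2% held AGATAA, 28.3% GAGGAA and 16.8% TGTGGT. Of the 8 members with a window (Ccr7 had none in the table used), 2, 3 and 3 held them. A member counted if any of its windows held a match (Ccrl2 has several), whereas the shares are of single windows. The windows also differed in base composition, with 38.0% G and C in Ccr2, 44.0% in Ccr1, 51.3% in Ccr9 and 59.3% in Cxcr4, against a median of 52.7% over all windows.

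The inflammatory CC receptors showed the largest falls. Ccr1, a receptor of Ccl3, Ccl5, Ccl6 and Ccl9 on monocytes and granulocytes, read 8.70, 8.84 and 8.74 in the EGFP-negative and 5.87, 5.51 and 5.84 in the EGFP-positive arrays. The groups lay far apart, and each was tight. The difference was -3.02 (SE 0.12, 8.13-fold lower; limma, Benjamini-Hochberg adjusted p = 3.4e-05). The other Ccr1 probe set fell alike, from 6.56 ± 0.04 to 3.57 ± 0.40 (n = 3), at least 7.07-fold lower, with EGFP-positive arrays under the ceiling set to it.

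Ccr2, the receptor of Ccl2, Ccl7 and Ccl12 that releases monocytes from marrow, read 9.03, 9.0 and 9.26 in the EGFP-negative and 6.49, 5.97 and 6.85 in the EGFP-positive arrays. The EGFP-positive arrays were more spread out than the EGFP-negative ones but did not reach them. Ccr2 fell by 2.66 (SE 0.23, 6.32-fold; limma adjusted p = 0.00035). All 4 of its probe sets were lower, with differences of -2.66, -2.45, -2.35 and -1.65. The last came from a probe set at 4.51 ± 0.68 in EGFP-negative arrays (adjusted p = 0.021 over probe sets, limma). Apart from the lead, every EGFP-positive array of these probe sets lay under the ceiling. Their folds are therefore lower bounds, of 4.28, 2.09 and 1.86 in the same order.

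By their lead probe sets, the homing receptors of lymphoid cells went in opposite directions. Ccr7, which guides T cells and dendritic cells to lymph nodes, read 8.26, 8.31 and 8.44 in the EGFP-negative and 6.40, 7.05 and 7.23 in the EGFP-positive arrays. EGFP-positive replicate 1 was the lowest, and the groups did not overlap. The difference was -1.44 (SE 0.22, 2.71-fold lower; limma adjusted p = 0.0034), from a single probe set.

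Ccr9, the receptor of Ccl25 on thymus-seeding progenitors and gut-homing lymphocytes, read 5.30, 5.21 and 5.65 in the EGFP-negative and 6.36, 6.80 and 6.19 in the EGFP-positive arrays by its lead probe set. All EGFP-positive arrays were the higher ones, and the difference was 1.07 (SE 0.19, 2.09-fold; limma adjusted p = 0.0072). The 4 other probe sets of Ccr9 did not pass. They read between 2.55 and 5.06 on single arrays, and their differences were -0.27, -0.14, 0.55 and 0.76 (adjusted p from 0.059 to 0.70 over probe sets, limma). With the mean of its 5 probe sets Ccr9 differed by 0.39 and did not pass (limma adjusted p = 0.058), so the rise rests on 1 probe set.

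**Figure D2:**
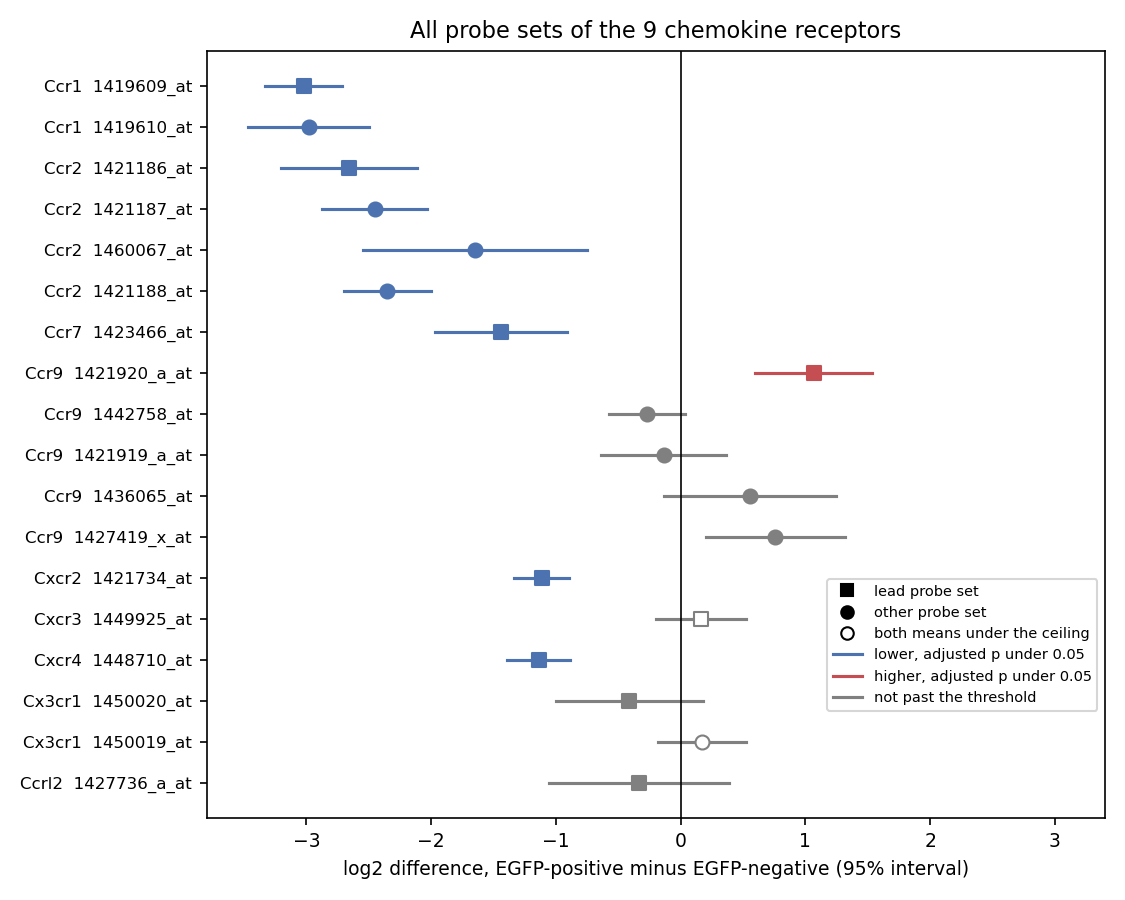
Log2 difference, EGFP-positive minus EGFP-negative, with its 95% interval from limma (horizontal axis), for each of the 18 probe sets of the 9 receptors. Squares are lead probe sets, open symbols have both group means under the ceiling, and colour gives the call over all probe sets. All probe sets of Ccr1 and Ccr2 lie to the left of 0, while those of Ccr9 lie on both sides.

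The CXC receptors of marrow traffic fell by about the same factor. Cxcr4, the receptor of Cxcl12, read 12.47, 12.49 and 12.56 in the EGFP-negative and 11.32, 11.26 and 11.51 in the EGFP-positive arrays. The signal was bright in both groups, and they did not overlap. Cxcr4 fell by 1.14 (SE 0.09, 2.20-fold; limma adjusted p = 0.00032).

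Cxcr2, the neutrophil receptor of Cxcl1, Cxcl2, Cxcl3, Cxcl5 and the product of Ppbp, read 9.74, 9.64 and 9.58 in the EGFP-negative and 8.56, 8.56 and 8.50 in the EGFP-positive arrays. Both groups were tight and apart. Cxcr2 fell by 1.11 (SE 0.08, 2.16-fold; limma adjusted p = 0.00020). Each of these genes has 1 probe set.

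Cxcr3, the receptor of interferon-induced Cxcl9, Cxcl10 and Cxcl11 on T cells and NK cells, lay under the ceiling on all 6 arrays, between 2.51 and 3.05, so no fold is given. Cx3cr1, the fractalkine receptor of patrolling monocytes, read 3.79, 4.79 and 4.32 in the EGFP-negative and 3.86, 3.95 and 3.86 in the EGFP-positive arrays, just above the ceiling. Its groups overlapped, with a difference of -0.41 and a 95% interval from -1.0 to 0.18 (limma adjusted p = 0.26). Without EGFP-negative replicate 1, the lowest of that group, the difference was -0.67 and passed (limma adjusted p = 0.039). The other Cx3cr1 probe set lay under the ceiling on all 6 arrays, with means of 2.69 and 2.86. It differed by 0.17 (limma adjusted p = 0.47 over probe sets). With the mean of both probe sets, Cx3cr1 differed by -0.12 and did not pass (limma adjusted p = 0.44).

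Ccrl2, an atypical receptor that presents chemerin, read 6.50, 6.70 and 6.77 in the EGFP-negative and 6.02, 5.91 and 7.03 in the EGFP-positive arrays. EGFP-positive replicate 3 was the highest of all 6, and the other EGFP-positive arrays were the lowest. The difference was -0.33, with a 95% interval from -1.06 to 0.40 (limma adjusted p = 0.46). Without EGFP-positive replicate 3 it was -0.69 and passed (limma adjusted p = 0.011).

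In the RefSeq gene order of mouse chromosome 9, Ccr9, Fyco1, Cxcr6, Xcr1, Ccr1, Ccr1l1, Ccr3 and Ccr2 follow each other. Within this stretch of 8 measured genes, Ccr1 and Ccr2 were lower and Ccr9 was higher. Fyco1, an autophagy adaptor and the only one of the 8 that is no receptor gene, read 7.86 ± 0.19 and 8.25 ± 0.14 (n = 3; limma adjusted p = 0.064). Xcr1, Ccr1l1 and Ccr3, which stand between or beside the falling genes, stayed below the ceiling on average in either group, at 2.14, 1.89 and 1.49 in EGFP-negative arrays. Cxcr6 read 4.08 ± 0.45 and 3.95 ± 0.18. Ccrl2 and Cx3cr1 are on the same chromosome but outside the stretch.

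**Figure D3:**
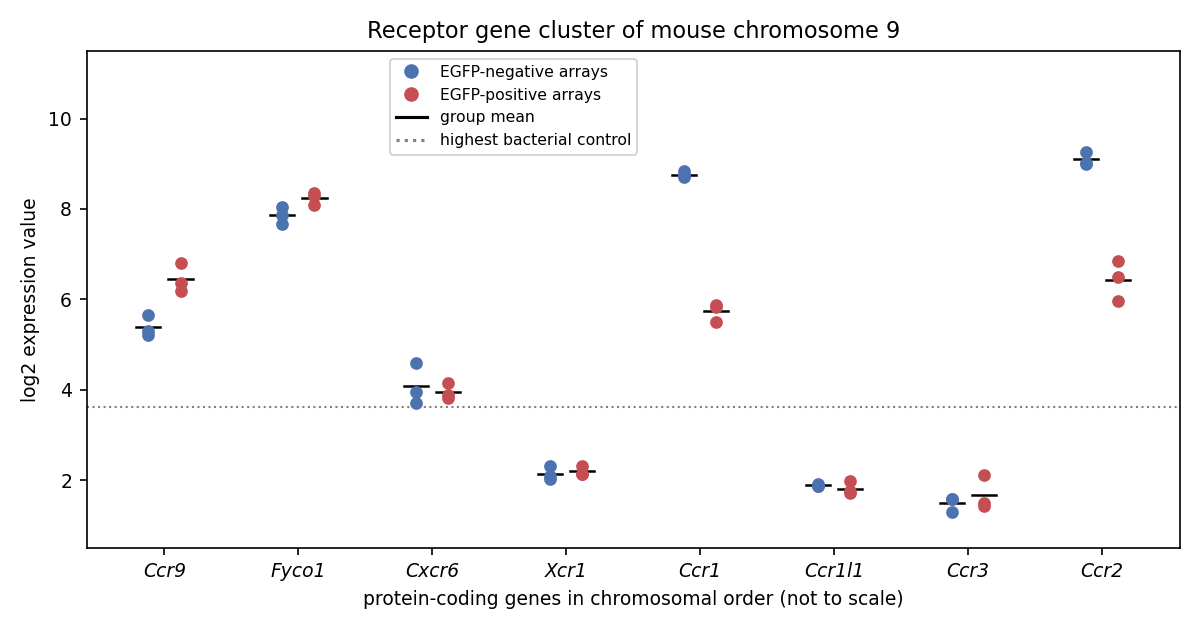
Log2 expression value of each array (points) and group mean (bars) for 8 neighbouring protein-coding genes of chromosome 9, in RefSeq order along the horizontal axis, not to scale. Blue is EGFP-negative, red is EGFP-positive and the dotted line is the ceiling of 3.61. Ccr1 and Ccr2 are separated between groups by 3.02 and 2.66, whereas Ccr1l1 and Ccr3 between them stay under the ceiling.

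Of 14 other chemokine receptors measured, 1 was higher, 2 were lower and 11 did not pass, and 8 had both means under the ceiling. These counts do not exceed the shares over all genes, 16.0% higher and 17.2% lower. The median difference was -0.05. Ackr1, a non-signalling chemokine binder of red cell precursors and venules, rose from 8.02 ± 0.01 to 8.96 ± 0.12 (n = 3, limma adjusted p = 0.00053). Ackr4, a scavenger of Ccl19, Ccl21 and Ccl25, fell from 9.60 ± 0.07 to 9.07 ± 0.11 (limma adjusted p = 0.0062). Ccr10, a receptor of skin-homing lymphocytes, was lower at the edge of the ceiling, 4.16 ± 0.05 against 3.73 ± 0.13 (limma adjusted p = 0.017), but did not pass without EGFP-negative replicate 2 (0.065) or 3 (0.057), which leaves 1 lower receptor.

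Ligands of Ccr1 and Ccr2 were lower as well, and those of Ccr7 were not analysed here. Of 22 ligand genes measured, 9 were lower, 3 were higher and 10 did not pass (median -0.08). The shares over all genes were 17.2% lower and 16.0% higher. Ccl3 fell from 11.03 ± 0.03 to 6.91 ± 0.14 (n = 3, 17.4-fold) and Ccl4, its close relative, from 11.89 ± 0.07 to 8.43 ± 0.10 (11.0-fold; limma adjusted p = 1.5e-05 for both). Other Ccr1 ligands fell less: Ccl5 by 1.33, Ccl6 by 0.73 and Ccl9 by 0.63. The Ccr2 ligands were lower too. Ccl2 fell from 6.43 ± 0.11 to 4.24 ± 0.03 (4.55-fold, limma adjusted p = 3.6e-05). Ccl12 and Ccl7 went from 4.28 ± 0.13 and 4.32 ± 0.26 to under the ceiling, at least 1.59-fold and 1.63-fold lower.

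The ligands of Cxcr2 moved both ways. Cxcl2 fell from 9.88 ± 0.15 to 9.07 ± 0.20 (n = 3, limma adjusted p = 0.0052). Ppbp, stored in platelet granules, rose from 7.05 ± 0.09 to 10.05 ± 0.02 (8.0-fold, limma adjusted p = 1.5e-05). Cxcl1 (5.68 ± 0.26 and 5.59 ± 0.85) and Cxcl3 (6.88 ± 0.09 and 6.63 ± 0.03) did not pass, and Cxcl5 passed as higher with both means under the ceiling (1.66 and 2.51), so no fold is given.

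Among the ligands of the remaining receptors, Cx3cl1 passed as higher. Cxcl12, the ligand of Cxcr4, had both means under the ceiling (3.37 ± 0.28 and 3.38 ± 0.31, n = 3). Ccl25, the ligand of Ccr9, read 7.61 ± 0.09 and 7.55 ± 0.52. Cx3cl1, which encodes fractalkine and is the ligand gene of Cx3cr1, was higher by 0.57 (limma adjusted p = 0.022), and Rarres2, which encodes chemerin, read 7.26 ± 0.09 and 7.63 ± 0.28 without passing. The count of higher ligands became 1 without EGFP-negative replicate 3, where Cx3cl1 (limma adjusted p = 0.077) and Cxcl5 (0.14) did not pass.

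**Figure D4:**
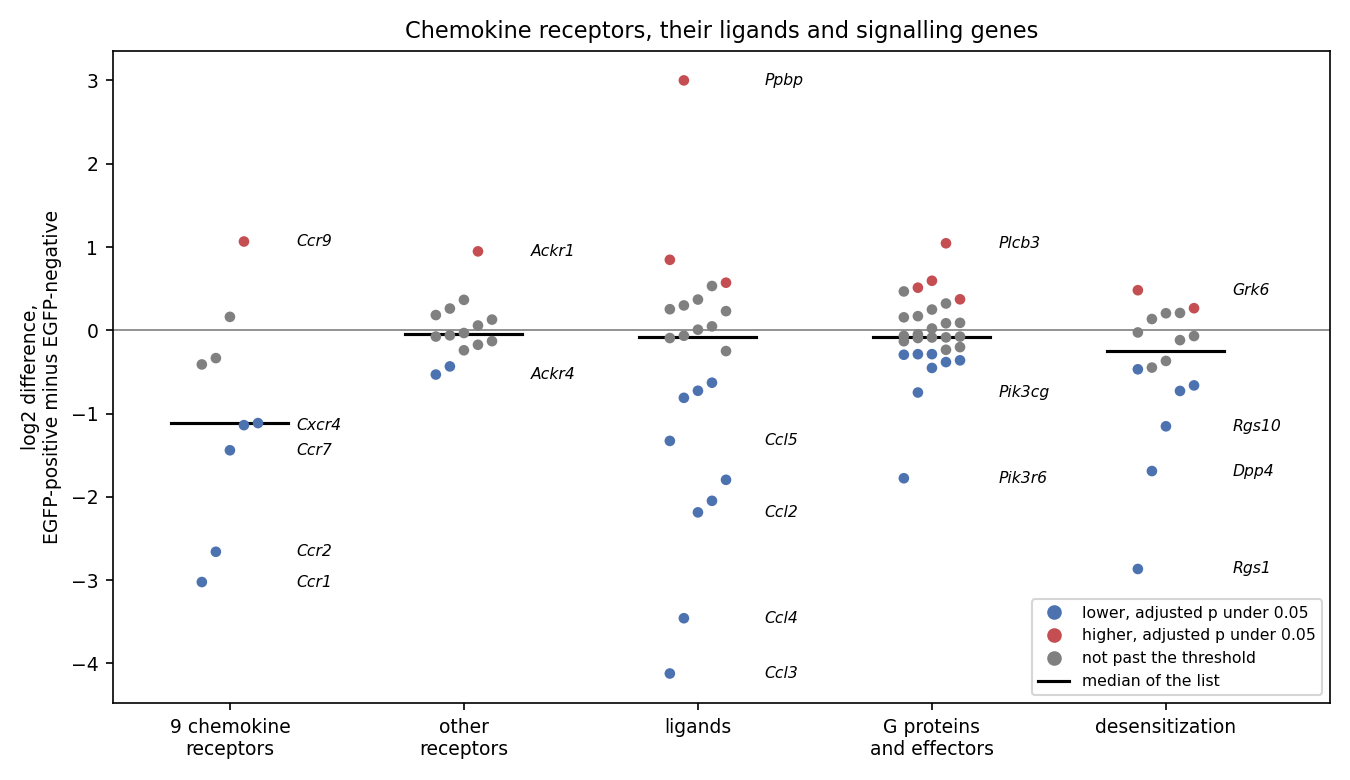
Log2 difference, EGFP-positive minus EGFP-negative (vertical axis), of each measured gene of the 9 receptors, 14 other receptors, 22 ligands, 29 G protein and effector genes and 16 desensitization genes. Each point is a gene, coloured by its call, and black bars are list medians. The receptor median of -1.11 stands below the other 4 medians, which lie between -0.24 and -0.05. The lists were chosen with earlier results of these data known.

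Of 29 G protein and effector genes, which carry the signal inside the cell, 8 were lower, 4 were higher and 17 did not pass (median -0.08). Over all genes, 17.2% were lower and 16.0% higher. The largest fall was that of Pik3r6, a regulatory subunit of PI3-kinase gamma, by 1.78 (limma adjusted p = 0.0068), and the catalytic subunit gene Pik3cg fell from 11.76 ± 0.05 to 11.01 ± 0.07 (n = 3, limma adjusted p = 0.00095). Gng2, a G protein gamma subunit, fell by 0.45. The phospholipase C genes Plcb3 and Plcb2 rose by 1.04 and 0.59, the G protein gene Gnaq by 0.51 and the kinase gene Jak2 by 0.37. Jak2 did not pass without EGFP-negative replicate 1 (limma adjusted p = 0.052), 2 (0.071) or 3 (0.053), nor Gnaq with its most variable probe set (0.057). Itga4, an integrin subunit that chemokines activate, was lower by its lead probe set (-0.36, limma adjusted p = 0.010) but not by its most variable one (0.28, adjusted p = 0.35). The count of lower genes was 4 without any 1 of EGFP-negative replicates 1, 2 and 3 and EGFP-positive replicate 1, and 5 without EGFP-positive replicate 2. In these same fits 2252 to 2863 of all 18192 genes were lower, against 3132 with all arrays. The counts without 1 array are near those shares, so they say nothing particular about this list.

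Of 16 genes that end or limit the signal, 6 were lower, 2 were higher and 8 did not pass (median -0.24). Among all genes, 17.2% were lower and 16.0% higher. Rgs1, which speeds up the shutdown of inhibitory G proteins, fell from 10.01 ± 0.07 to 7.14 ± 0.26 (n = 3, 7.29-fold, limma adjusted p = 5.5e-05). Rgs10 and Rgs18, of the same family, fell by 1.15 and 0.73. Dpp4, a surface protease that inactivates Cxcl12, fell from 10.66 ± 0.06 to 8.97 ± 0.17 (limma adjusted p = 0.00014). The receptor kinase genes Grk6 and Grk3 were higher by 0.48 and 0.27 (limma adjusted p = 0.031 and 0.038). Neither kinase passed without EGFP-negative replicate 1 (0.097 and 0.11), EGFP-negative replicate 2 (0.10 and 0.11) or EGFP-positive replicate 2 (0.058 and 0.090). Grk3 was also lost without EGFP-negative replicate 3 (0.10) or EGFP-positive replicate 1 (0.079).

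Neutrophil, monocyte, mast cell and eosinophil markers were mostly lower in EGFP-positive arrays. Dendritic cell markers were lower (3 of 7) or did not pass (4). For comparison, 17.2% of all genes were lower and 16.0% higher. Of 12 neutrophil genes, 11 were lower and 1, Csf3r, was higher, and their summed signal, on the log2 scale, was 15.78 to 15.87 in EGFP-negative and 14.87 to 14.90 in EGFP-positive arrays. The granule enzyme genes Ctsg and Mpo fell by 3.65 and 3.69. Of 9 monocyte genes, 7 were lower, among them Ms4a3 (-3.28) and Adgre1 (-2.07), and 2 were higher, Cd68 (0.80) and Fcgr1 (0.85), with summed signals of 13.03 to 13.12 and 12.25 to 12.29. Of 7 mast cell and basophil genes 6 were lower, such as Cpa3 (-3.46) and Hdc (-3.65), with sums of 13.66 to 13.70 and 11.64 to 11.76. Of 6 eosinophil genes 4 were lower, such as Prg2 (-2.85) and Siglecf (at least 3.94-fold lower), with sums of 10.66 to 10.84 and 7.78 to 8.49.

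Among 9 lymphoid genes 5 were lower, with Dntt at least 35.9-fold and Nkg7 12-fold, and the sum went from between 11.88 and 11.97 to between 8.33 and 8.56. Of the homing receptors of lymphoid cells, Ccr7 was lower too (-1.44), and Ccr9 passed as higher by its lead probe set alone (1.07). Of 7 dendritic cell genes 3 were lower, such as Itgax (-2.69) and Batf3 (-1.10), and the sum was 13.02 to 13.04 and 13.09 to 13.19. Most of that sum is Cd74, which read 12.84 and 13.03 without passing. Of 5 stem and progenitor genes 3 were lower, such as Cd34 (-2.75) and Kit (-0.98), and Slamf1 was higher (2.59), with sums of 10.96 to 11.12 and 9.57 to 9.78. Of 5 erythroid genes 4 were higher, such as Slc4a1 (at least 52.2-fold) and Gata1 (1.38), and Alas2 was lower (-1.86), with sums of 10.31 to 10.35 and 11.91 to 11.93. Of the lymphoid list, Cd3g, Ms4a1, Rag1 and Ncr1 had both means under the ceiling, as did Cd209a of the dendritic and Alox15 of the eosinophil list. No defining marker of the neutrophil, monocyte or mast cell lists did. The part of these markers' cells in the receptor differences was not tested.

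The genes whose pattern over the 6 arrays was most like each receptor were found by the root mean square difference of mean-centred log2 values, where 0 means the same pattern. For Cxcr4 the nearest were Rgs10 (0.038), Il6 (0.054) and Dock5 (0.059). For Cxcr2 they were Capn2 (0.051), Rpusd2 (0.053) and Rrp1b (0.053). Ccr1 was nearest to Adgrg3 (0.11), Xdh (0.16) and an immunoglobulin kappa variable segment (0.16), and Ccr2 to Clnk (0.12), Srm (0.15) and Dusp6 (0.16). For Ccr7 these were Zscan18 (0.065), Piwil2 (0.079) and Stk32c (0.10), and for Ccr9 Megf11 (0.082), Pak6 (0.099) and Scd3 (0.10). For the receptors that did not pass, Ccrl2 was nearest to Rps4l (0.058), Ocel1 (0.081) and Fam133b (0.095), and Cx3cr1 to 2810039B14Rik (0.096), Enam (0.13) and Cd36 (0.13). With only 2 groups, such likeness reflects mostly the size of the group difference. Some of these genes were dim. Both means of 2810039B14Rik (3.15 and 2.68) and Enam (2.13 and 1.82) lay under the ceiling, as did the EGFP-positive mean of Stk32c (3.23).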

How the data were processed

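Total RNA of 6 sorted samples was amplified from the 3′ end and hybridised to 1 Affymetrix array each, per the labels' protocols. The values deposited by the authors are log2 expression per probe set, made with RMA per the submitters' processing notes, with no version named in the sources used here. RMA normalizes arrays to like distributions, so a change in total RNA per cell is not visible in these values. Probe sets annotated to 1 gene were grouped by symbol, each gene was represented by the probe set with the highest mean, and limma 3.58.1 (R 4.3.3) was fitted over 18192 genes (all 6 arrays, no covariate, two-sided, Benjamini-Hochberg over all genes). Single probe sets were fitted over all 45037. Values under the highest bacterial control (3.61) were set to it for folds, which are then lower bounds, and no fold is given where both means lie under it. Arrays carry no read depth, and 3 arrays per group limit the precision.

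The members and gene lists were chosen with earlier results of these data known. From the pathway lists, up to 4 rises and 4 falls with the smallest p were named, and up to 2 of each from the marker lists. Ligands beyond that were named, after their values were seen, to show each receptor's partners, as were Fyco1 and the receptors of the chromosome 9 stretch. Listed genes without a probe set of their own (12) were not analysed here. The scripts were tested on simulated data. The alternatives were the replicate block, other scalings, filters on dim genes, eBayes options, array weights, other probe set choices and leaving out each array.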

Additional observations from a re-analysis of the deposited data

How the results depend on the processing

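The falls of Ccr1, Ccr2, Ccr7, Cxcr2 and Cxcr4 kept their direction and their call under all 16 alternatives, with the highest limma adjusted p being 0.019, for Ccr7. Ccr9 was not among the tested genes when only those brighter than the median gene were kept, and with the mean of all probe sets its rise was 0.39 (limma adjusted p = 0.058), so the count of higher receptors was 0 in both. Leaving out 1 array at a time gave -0.67 to -0.16 for Cx3cr1 and -0.69 to -0.13 for Ccrl2. The same gave 1 to 2 higher and 1 to 2 lower other receptors, 1 to 3 higher ligands, 4 to 6 lower G protein and effector genes and 0 to 2 higher desensitization genes. Samples with the same replicate number did not deviate together (r of -0.02 to 0.01 over probe sets). With the replicate number as a block there were 1 lower other receptor, 3 lower G protein and effector genes and 0 higher desensitization genes, the calls of Itga4, Ccr10, Jak2, Grk6 and Grk3 were lost (limma adjusted p = 0.051, 0.057, 0.062, 0.083 and 0.11), and no call of the 9 receptors changed. Other receptors had 1 lower gene with eBayes trend and with only the brighter genes. Arrays shifted to the same median left 5 lower G protein and effector genes. The mean of all probe sets gave 5 higher ligands and 7 higher and 5 lower G protein and effector genes, and the most variable probe set gave 7 and 5. Averaging the probe sets of Itga4 turned it to 0.013, and its most variable one to 0.28. Of 24 named pathway genes, 16 kept their call in every alternative in which they were tested. Among these, Ccl2 and Ccl12 were not tested when only genes brighter than the median gene were kept. The causes were not tested. Signals near the ceiling, as for Cxcr3 and Cx3cr1, limit what these arrays can show.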
